A study of Homo sapiens with 2 samples.

Results

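The eIF2α axis was followed here through 10 genes, taken by symbol from the table of 44591 genes: the eIF2 subunits EIF2S1, EIF2S2 and EIF2S3, the eIF2α kinases EIF2AK1, EIF2AK3 and EIF2AK4, the transcription factors ATF4 and DDIT3, and the phosphatase subunits PPP1R15A and PPP1R15B. All 10 had at least 10 reads summed over both libraries, and 9 had at least 1000. Total RNA was sequenced from HSC-1, a cell line of human cutaneous squamous cell carcinoma, after transient transfection with siNC, a control siRNA, or with siLINP1, an siRNA against the long non-coding RNA LINP1. Both cultures were kept in DMEM with 10% serum and, per the labels, were transfected at 70% confluency, held 6 h without serum and grown for a further 24 h. The methods give another confluency and time, and the oligonucleotide of siLINP1 used for sequencing is not given in the sources used here. There was 1 library of 1 culture for each treatment. No difference below has a replicate check, no p-value was computed, and each interval is a 95% interval for counting error only.

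The siNC library held 18829544 counted reads and the siLINP1 library 15383081. LINP1 had 167 reads with siNC and 23 with siLINP1, which left 16.2% of the scaled siNC count. Of 16 squamous keratinocyte markers, 8 were under 1 RPKM (reads scaled to the length of the gene and the total of the library) in both libraries, among them TP63 with 6 and 8 reads, and the list summed to 114.5 and 102.7 RPKM, led by ITGB4. Of 12 mesenchymal markers, 3 were under 1 RPKM in both, and the list summed to 2073 and 1704 RPKM, most of it from VIM and SPARC. The 8 stomach markers summed to 13.2 RPKM with siNC and 0.0219 RPKM with siLINP1, and 3 of the 6 blood cell markers were at 0 in both. PGC, PGA3 and LIPF held most of the stomach reads, at 194, 95 and 82 with siNC and 0 with siLINP1. The part of these marker differences in the values below was not tested. In bulk RNA a change in the make-up of the cells, a change of RNA per cell and reads from another sample cannot be told apart.

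eIF2 is the trimer that brings the initiator tRNA to the small ribosomal subunit. Under stress, kinases phosphorylate its α subunit, which lowers translation in general and lets a small set of mRNAs with upstream reading frames, such as that of ATF4, be translated more. ATF4 activates the gene of CHOP (DDIT3), and GADD34 (PPP1R15A) then directs protein phosphatase 1 back onto eIF2α, a feedback loop that the constitutive subunit CReP (PPP1R15B) serves in resting cells. The study asked how LINP1 acts on this pathway in cutaneous squamous cell carcinoma cells. The counts measure RNA and carry no information on phosphorylation or protein.

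The sequences that bear on the comparison are those that set the treatments apart and those in front of the members with the largest differences. LINP1 lies on chromosome 10 of GRCh37, and the targets of its 2 siRNAs are exonic and on the plus strand, siLINP1_01 at chr10:6780757-6780775 and siLINP1_02 at chr10:6780487-6780505. Capitals mark the 7 bases that pair with bases 2 to 8 of the guide strand, its seed.
siLINP1_01: ccaactgcgggACTTCAGa
siLINP1_02: cactctccagcCTGCAAGa
The seed site of siLINP1_01 occurred in the 3′UTR of 3 of the 10 genes, EIF2S1, EIF2AK1 and PPP1R15B, against 16.3% of 13534 canonical coding transcripts of GENCODE on GRCh37 whose genes were kept. That of siLINP1_02 occurred in the 3′UTR of 0 of the 10, against 13.4% of the transcripts. The 3 genes with a site had log2 fold changes of -0.08, -0.08 and 0.64, values that are described below. Elsewhere in their transcripts, PPP1R15A held 1 match to the first seed site and 2 to the second, DDIT3 held 1 to the second, and EIF2S3 and EIF2AK4 held 1 and 2 to the first. A match of these bases describes the sequence and was not taken as a site of action.

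The 250 bases in front of the start of DDIT3, PPP1R15A and PPP1R15B are shown because these 3 genes differed most between the libraries. They are RefSeq sequences of GRCh38.p14, a later build than that of the counts, and are written 5′ to 3′ on the strand of the gene. DDIT3 is at chr12:57520515-57520764 on the minus strand, PPP1R15A at chr19:48872171-48872420 on the plus strand and PPP1R15B at chr1:204411818-204412067 on the minus strand. Capitals mark matches to the motifs searched.
DDIT3: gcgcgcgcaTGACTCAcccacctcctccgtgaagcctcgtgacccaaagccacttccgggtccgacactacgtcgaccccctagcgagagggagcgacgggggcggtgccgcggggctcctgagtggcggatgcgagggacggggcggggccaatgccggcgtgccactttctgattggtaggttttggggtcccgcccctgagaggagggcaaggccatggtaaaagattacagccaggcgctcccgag
PPP1R15A: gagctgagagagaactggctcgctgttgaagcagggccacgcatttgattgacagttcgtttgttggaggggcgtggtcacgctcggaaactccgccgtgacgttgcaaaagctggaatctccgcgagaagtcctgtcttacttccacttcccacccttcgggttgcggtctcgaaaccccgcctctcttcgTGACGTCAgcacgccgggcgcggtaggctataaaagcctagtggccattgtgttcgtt
PPP1R15B: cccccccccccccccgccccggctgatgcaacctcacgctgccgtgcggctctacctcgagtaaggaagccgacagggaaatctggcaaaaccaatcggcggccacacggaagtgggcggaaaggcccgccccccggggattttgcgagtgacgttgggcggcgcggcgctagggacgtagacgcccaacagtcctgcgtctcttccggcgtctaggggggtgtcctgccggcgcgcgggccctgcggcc
The motifs were searched as exact strings on both strands from 250 bases before to 50 bases after the start. This was done in the 8 genes matched and in 27305 RefSeq promoters, and sites outside this window were not searched. EIF2S2 and EIF2AK1 were not matched. The full cAMP response element TGACGTCA, a palindrome to which ATF and CREB factors bind, was found in 1 of the 8 genes, PPP1R15A, from position -58 to -51 from the start, and in 1.98% of all promoters. TGANTCA, a loose form of the AP-1 site with any base at N, was found in 7.76% of all promoters. In DDIT3 it matched as TGACTCA from -241 to -235, and in EIF2AK4 as TGATTCA from -212 to -206. TGATGNAAT, 1 form of the composite element of C/EBP and ATF factors, was in 0 of the 8 windows, against 1.02% of all. The ER stress element, searched as CCAAT and CCACG parted by 9 bases of any kind, was in 0 of the 8, against 0.0806%. Strings that differ from these at 1 base were not counted. Among such strings are tgatgcaac in the PPP1R15B sequence above and ccaatgccggcgtgccact in that of DDIT3. None of these 4 motifs overlapped another where they matched, and PPP1R15B held no exact match to them in this window.

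CHOP and both phosphatase subunits were higher with siLINP1, while ATF4, the eIF2 subunits and the kinases lay within 1.5-fold. PPP1R15A, DDIT3 and PPP1R15B were higher by 3.55-, 2.13- and 1.56-fold in the siLINP1 library. The median log2 fold change of the 10 genes was 0.10, beside 0.00 over the 19840 genes with at least 10 reads. By more than 1.5-fold, 3 of the 10 genes were higher and 0 were lower, while 15.1% of all genes kept were higher and 12.0% lower. Among the 7071 genes with at least 1000 reads, where counting error is smaller, 6.00% were higher and 2.91% lower. The whole interval lay above 1.5-fold for 2 of the 10, PPP1R15A and DDIT3, against 4.25% of genes kept and 3.86% of those with at least 1000 reads.

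**Figure D1:**
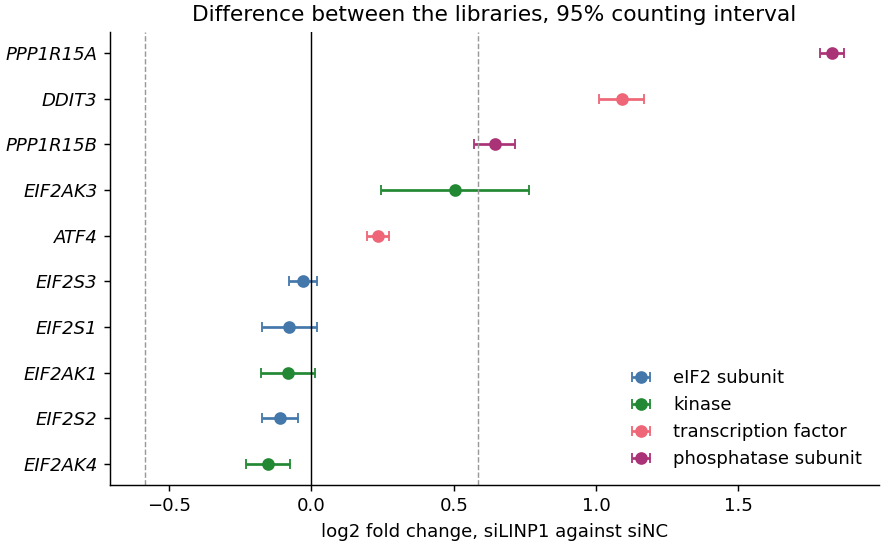
Log2 fold change of siLINP1 against siNC for each of the 10 genes, coloured by role. Bars are 95% counting intervals, the solid line marks no change and the dashed lines mark 1.5-fold. PPP1R15A and DDIT3 lie wholly beyond the upper dashed line at 1.83 and 1.09, and the bars of PPP1R15B and EIF2AK3 cross it.

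GADD34 had the largest difference. PPP1R15A, which the table places at chr19:49375649-49379319 on the plus strand in GRCh37, the build of all gene positions here, had 6028 reads with siNC and 18205 with siLINP1. Per length, its level was 134.3 RPKM with siNC and 496.6 RPKM with siLINP1. The log2 fold change was 1.83 (1.79 to 1.87). Only 21 of the 7071 genes with at least 1000 reads had a larger one. Genes as strongly read as PPP1R15A tended to be lower with siLINP1: the 488 genes with at least 10000 reads had a median log2 fold change of -0.18.

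CReP differed in the same direction and by less. PPP1R15B, at chr1:204372492-204380945 on the minus strand, had 2771 reads with siNC and 3683 with siLINP1, or 27.9 and 45.4 RPKM. Its log2 fold change of 0.64 (0.57 to 0.71) is a fold of 1.56, and the interval reached below 1.5-fold. The ratio of PPP1R15A to PPP1R15B per kilobase does not depend on the scaling of the libraries. It was 4.82 (4.60 to 5.04) with siNC and 10.9 (10.6 to 11.3) with siLINP1, a 2.27-fold difference (exact conditional interval 2.14 to 2.41). PPP1R15A thus made up 82.8% of the summed RPKM of both phosphatase subunits with siNC and 91.6% with siLINP1, while the sum went from 162 to 542 RPKM.

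DDIT3 encodes CHOP, a bZIP factor that pairs with C/EBP proteins and activates genes of apoptosis. It lies at chr12:57910371-57914300 on the minus strand and had 1965 reads with siNC and 3558 with siLINP1. These are 88.6 and 196.3 RPKM, a log2 fold change of 1.09 (1.01 to 1.17). Among genes with at least 1000 reads, 79 had a larger value. The last 68 bases of DDIT3 overlap MARS, a gene on the opposite strand with 6044 and 5426 reads, and reads there cannot be told apart without a strand setting, which is not given in the sources used here.

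ATF4, the factor upstream of CHOP, was among the most abundant RNAs of the axis and differed less. At chr22:39916564-39918691 on the plus strand, it had 10082 reads with siNC and 10088 with siLINP1. That equals 264.2 and 323.5 RPKM, since the siLINP1 library is smaller. The log2 fold change was 0.23 (0.19 to 0.27), above 0 and below 1.5-fold. DDIT3 stood to ATF4 as 0.335 (0.319 to 0.352) to 1 per kilobase with siNC and as 0.607 (0.584 to 0.631) to 1 with siLINP1, a 1.81-fold difference in that ratio (1.70 to 1.93). The ATF4 pseudogenes ATF4P1, ATF4P2, ATF4P3 and ATF4P4 had 0 to 14 reads in each library.

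**Figure D2:**
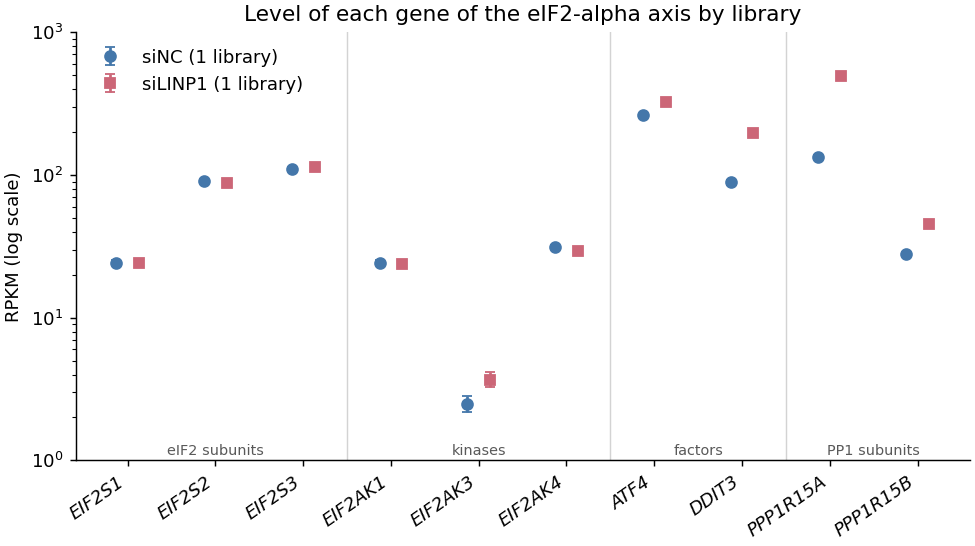
Level of each gene in RPKM on a log axis, siNC as circles and siLINP1 as squares, 1 library each. Bars are 95% counting intervals and are mostly smaller than the symbols. The siLINP1 square lies well above the siNC circle for DDIT3, PPP1R15A and PPP1R15B, while the eIF2 subunits are level.

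The kinases differed from each other in their fold changes, EIF2AK3 lying above EIF2AK1 and EIF2AK4. EIF2AK3 encodes PERK, the kinase in the ER membrane, and lies at chr2:88856258-88927094 on the minus strand. It had the fewest reads of the 10 genes, 227 with siNC and 274 with siLINP1, or 2.49 and 3.69 RPKM. Its log2 fold change of 0.50 (0.25 to 0.76) was above 0, and its wide interval took in 1.5-fold. EIF2AK1 encodes HRI, the kinase that senses lack of haem and mitochondrial stress. At chr7:6061878-6098860 on the minus strand, it had 2045 and 1645 reads, 24.3 and 23.9 RPKM, with a log2 fold change of -0.08 (-0.18 to 0.01) that includes 0. EIF2AK4 encodes GCN2, the sensor of uncharged tRNA. At chr15:40226325-40327797 on the plus strand, it had 3243 and 2482 reads, 31.1 and 29.2 RPKM, and its log2 fold change was -0.15 (-0.23 to -0.08).

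PERK RNA was the scarcest of the 3 kinases in both libraries. EIF2AK1 exceeded EIF2AK3 per kilobase by 9.75-fold (8.50 to 11.2) with siNC and 6.50-fold (5.71 to 7.41) with siLINP1. EIF2AK4 exceeded it by 12.5-fold (10.9 to 14.3) and 7.91-fold (6.98 to 9.00). Between the libraries, these ratios differed by 0.666-fold (0.550 to 0.807) and 0.634-fold (0.525 to 0.765), intervals that leave out no difference. EIF2AK3 made up 4.31% of the summed RPKM of the 3 kinases with siNC and 6.49% with siLINP1, and the sum was 57.9 and 56.8 RPKM. The gene of the remaining eIF2α kinase, EIF2AK2 (PKR, the sensor of double-stranded RNA), had 653 and 570 reads and a log2 fold change of 0.04 (-0.13 to 0.20). Other genes of the table overlap these kinases on the opposite strand. The most read of them was AIMP2, which shares 1588 bases with the span of EIF2AK1 and had 926 and 899 reads. LOC101928371 shares 18871 bases with the span of EIF2AK3 and had 15 reads with siNC and 34 with siLINP1, beside 227 and 274 for EIF2AK3.

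The eIF2 subunits were nearly level. EIF2S1, the α subunit and substrate of the kinases, lies at chr14:67827034-67853233 on the plus strand. It had 1908 reads with siNC and 1539 with siLINP1, or 24.3 and 24.0 RPKM, with a log2 fold change of -0.08 (-0.18 to 0.02). EIF2S3, the γ subunit that binds GTP and the initiator tRNA, lies at chrX:24073065-24096927 on the plus strand. It had 7237 and 6037 reads, 110.9 and 113.3 RPKM, with a log2 fold change of -0.03 (-0.08 to 0.02). EIF2S2, the β subunit that contacts the exchange factor eIF2B, lies at chr20:32676104-32700162 on the minus strand. It had 4562 and 3594 reads, 90.4 and 87.2 RPKM, and a log2 fold change of -0.11 (-0.17 to -0.05). The whole interval was above 0 for 5 of the 10 genes and below 0 for 2, against 24.5% and 23.8% of all genes kept.

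Although the subunits join in equal numbers, their RNA levels were unequal. EIF2S2 exceeded EIF2S1 per kilobase by 3.72-fold (3.52 to 3.92) with siNC and 3.63-fold (3.42 to 3.86) with siLINP1. EIF2S3 exceeded EIF2S1 by 4.56-fold (4.33 to 4.80) and 4.72-fold (4.46 to 4.99). These ratios differed between the libraries by 0.977-fold (0.901 to 1.06) and 1.03-fold (0.958 to 1.12), intervals that include no difference. The ratio of EIF2S3 to EIF2S2 was 1.23 and 1.30, a 1.06-fold difference whose interval lay just above no difference. EIF2S2 has pseudogene copies that can share reads, and the 6 named in the table had 0 to 23 reads each.

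The order of the levels changed at its head. In siNC, ATF4 was the most abundant of the 10 genes per length, followed by PPP1R15A, EIF2S3, EIF2S2, DDIT3, EIF2AK4, PPP1R15B, EIF2S1, EIF2AK1 and EIF2AK3. Neighbours in this order differed beyond counting error except EIF2S2 and DDIT3, and EIF2S1 and EIF2AK1. In siLINP1, PPP1R15A passed ATF4, DDIT3 passed both eIF2 subunits above it, and PPP1R15B passed EIF2AK4. There, EIF2S1 and EIF2AK1 were the only neighbours within counting error. Both orders rest on the table's gene lengths, 2383 bases for PPP1R15A and 1178 for DDIT3. The longest coding transcripts of GENCODE have 3252 and 1067 bases, which place PPP1R15A lower and DDIT3 higher per length. In siNC, the order of PPP1R15A, EIF2S3, EIF2S2 and DDIT3 depends on the length used, and so does whether DDIT3 passed EIF2S2. By log2 fold change, PPP1R15A stood above DDIT3 by 0.74 (0.65 to 0.83) and DDIT3 above PPP1R15B by 0.45 (0.34 to 0.55). PPP1R15B and EIF2AK3 differed by 0.14 (-0.13 to 0.41), within counting error, and so did each pair of neighbours among EIF2S3, EIF2S1, EIF2AK1, EIF2S2 and EIF2AK4.

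**Figure D3:**
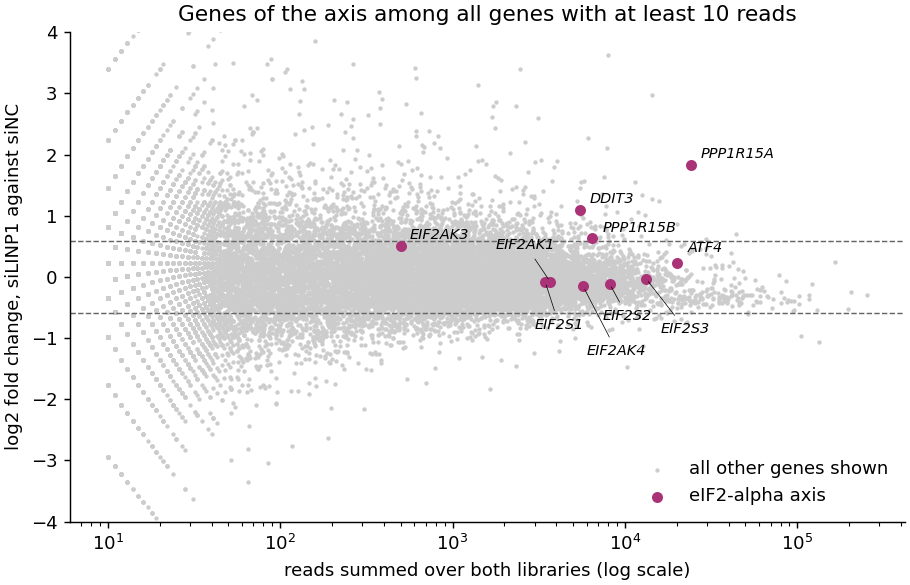
Log2 fold change of siLINP1 against siNC for genes with at least 10 reads, plotted against the reads summed over both libraries on a log axis, with the 10 genes in purple and 1.5-fold as dashed lines. The 45 genes with 0 reads in 1 library and 27 genes beyond the axis limit of 4 are not drawn. PPP1R15A stands at 1.83 with 24233 reads, where few other genes are above the upper dashed line.

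The genes whose levels were nearest to the most changed members were found by the Euclidean distance in log2 RPKM over the 2 libraries. For PPP1R15A they were RPPH1 at 0.30 with 159.8 and 440.2 RPKM, IER2 at 0.57 with 136.0 and 333.9 RPKM, and TNFRSF12A at 0.70 with 212.2 and 425.2 RPKM. For DDIT3 they were MIR5047 at 0.20 with 85.0 and 172.3 RPKM and ENSG00000257453.1 at 0.24 with 101.8 and 179.6 RPKM. With 2 libraries this likeness is one of level and fold only.

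The mRNAs of the axis differ in the features through which translation responds to eIF2α. In the canonical GENCODE transcripts on GRCh37, 7 of the 10 genes had an upstream reading frame in the 5′ leader, as did 41.3% of 13534 transcripts. ATF4 had 3, of 1, 3 and 59 codons, the last running past the start of the coding sequence. DDIT3 had 3, of which those of 34 and 31 codons end at the same stop and that of 73 codons runs past the coding start. PPP1R15A had 2, of 22 and 26 codons, and PPP1R15B 2, of 8 and 51 codons, all ending before the coding start. EIF2S1, EIF2S2 and EIF2AK3 had 1 each, of 25, 44 and 8 codons, those of EIF2S2 and EIF2AK3 reaching into the coding start, and EIF2S3, EIF2AK1 and EIF2AK4 had none. At least 2 frames were present in all of the last 4 genes of the axis (ATF4, DDIT3, PPP1R15A and PPP1R15B), in 0 of the other 6 and in 22.2% of transcripts.

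At the other end of the mRNA, PPP1R15A had a 3′UTR of 85 bases and ATF4 one of 81 bases, at percentiles 2.99 and 2.73 of all transcripts, whose median was 1296 bases. The pentamer ATTTA, the core of AU-rich elements that shorten the life of many mRNAs, occurred 2 times in the 3′UTR of PPP1R15A and 2 times in the 216 bases of that of DDIT3. Per kilobase these were 23.5 and 9.26, against a median of 1.69. ATF4 had none, and PPP1R15B had 11 in 2711 bases, or 4.06 per kilobase. A match to so short a word describes the sequence only.

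The other genes of the pathway were described in 4 lists of 45 genes, all of them read at least 10 times. The 13 genes of the eIF2 cycle had a median log2 fold change of 0.11, with 1 higher by more than 1.5-fold and 0 lower, a count that does not stand out beside the 15.1% and 12.0% of all genes kept. EIF5, the factor that promotes GTP hydrolysis on eIF2, had 2719 reads with siNC and 3595 with siLINP1, a log2 fold change of 0.64 (0.56 to 0.71). Of the subunits of eIF2B, the exchange factor that phosphorylated eIF2α blocks, EIF2B2 had the largest value, 0.48 (0.36 to 0.60), and EIF2B1, EIF2B3, EIF2B4 and EIF2B5 lay between -0.11 and 0.15.

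The list of kinase regulators, 10 genes with the kinase EIF2AK2 itself counted among them, had a median of -0.10. By more than 1.5-fold, 0 were higher and 1 was lower, close to the 12.0% of all genes kept that were lower. That gene was OMA1, the mitochondrial protease that activates DELE1 and through it HRI, at 363 reads with siNC and 196 with siLINP1 and a log2 fold change of -0.66 (-0.91 to -0.40). DELE1 itself, listed under its older symbol KIAA0141, had -0.23 (-0.34 to -0.12). HSPA5 (GRP78), the ER chaperone that keeps PERK inactive, had 11703 reads with siNC and 9274 with siLINP1 (log2 fold change -0.10, -0.14 to -0.06). Among the 6 partners of the phosphatase, with a median of 0.01, 0 genes passed 1.5-fold. Of all genes kept, 15.1% were higher and 12.0% lower by that criterion. ACTG1 differed most in this list, with 60149 reads with siNC and 34966 with siLINP1, a log2 fold change of -0.55 (-0.57 to -0.53). The catalytic subunits PPP1CA, PPP1CB and PPP1CC of protein phosphatase 1 had log2 fold changes of -0.33, 0.24 and 0.04.

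The partners and targets of ATF4 and CHOP differed among themselves. Of 16 genes, 5 were higher and 1 was lower by more than 1.5-fold, beside 15.1% and 12.0% of all genes kept and 6.00% and 2.91% of those with at least 1000 reads, and the median log2 fold change was 0.44. All 5 higher genes had the whole interval above 1.5-fold, and some of these genes were chosen with their values in these libraries known. ATF3, a stress-induced repressor of the same bZIP family, had 1197 reads with siNC and 4929 with siLINP1, a log2 fold change of 2.27 (2.18 to 2.37). TRIB3, a target of CHOP, had 2549 and 3820 reads (0.82, 0.74 to 0.89). GADD45A had 0.69 (0.63 to 0.75), and TNFRSF10B, the death receptor DR5, had 0.67 (0.61 to 0.73). XBP1, also counted among the 5, had 0.68 (0.59 to 0.77). The study names XBP1 as a typical marker of the unfolded protein response and not as a target of ATF4 or CHOP.

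Other genes of the list lay within 1.5-fold or were lower, among them BBC3 (PUMA, which promotes apoptosis) at 0.18 and the stress-induced DDIT4 at -0.14. ASNS, the asparagine synthetase that ATF4 activates, had 1533 and 1721 reads with a log2 fold change of 0.40 (0.30 to 0.50). CHAC1, which degrades glutathione and is a target of ATF4, had 864 reads with siNC and 546 with siLINP1, a log2 fold change of -0.43 (-0.59 to -0.27). NUPR1, another ATF4 target and the 1 gene lower by more than 1.5-fold, had 79 and 38 reads (-0.82, -1.42 to -0.25).

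**Figure D4:**
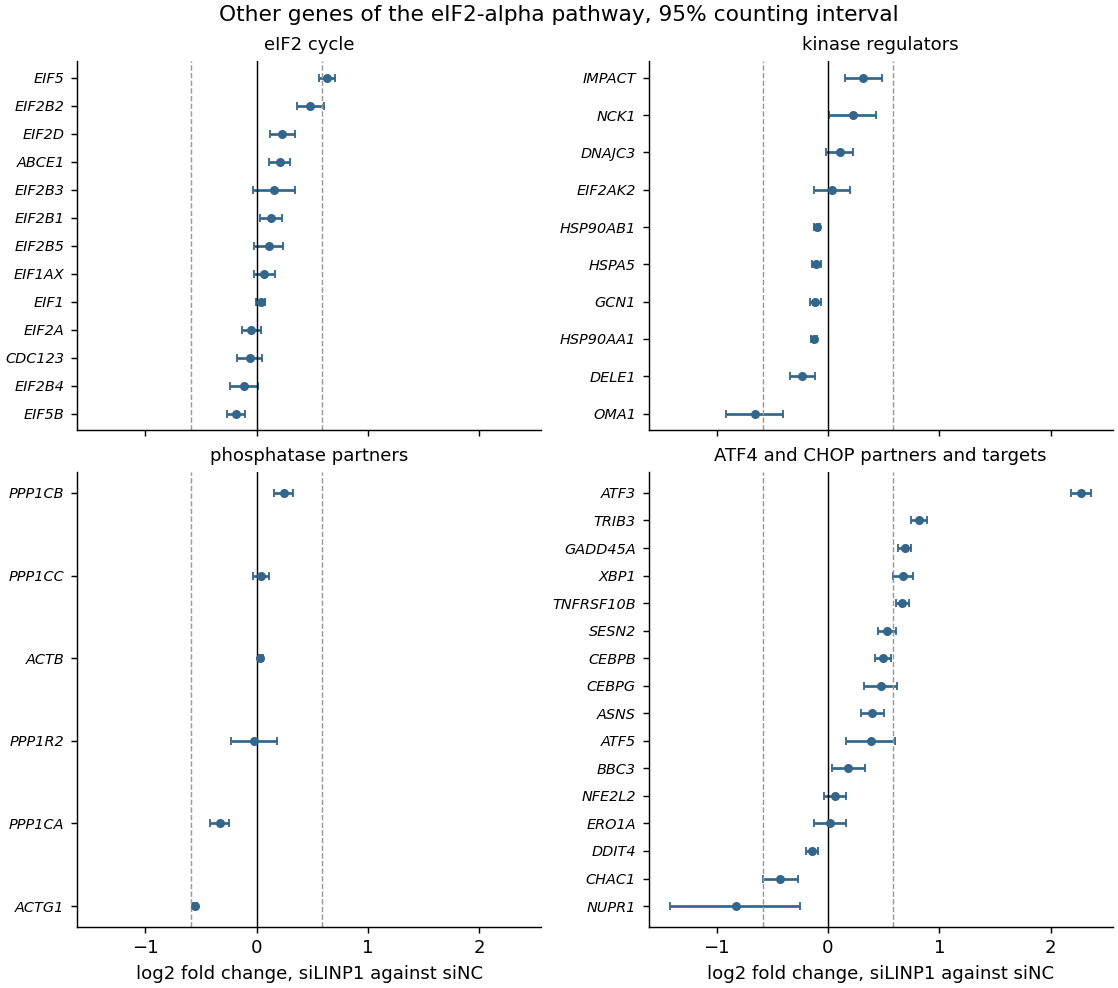
Log2 fold change of siLINP1 against siNC for the 45 other genes of the pathway, by list, with 95% counting intervals, a solid line at no change and dashed lines at 1.5-fold. In the list of partners and targets of ATF4 and CHOP, 5 genes lie wholly beyond the upper dashed line and ATF3 is farthest at 2.27, and in the other lists no gene does.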

How the data were processed

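The authors sequenced RNA of siNC- and siLINP1-transfected HSC-1 cultures, 1 library each, on an Illumina HiSeq instrument. The methods name alignment to GRCh37/hg19 with Tophat2 and counting on genes with HTSeq, while the submitters' processing notes also name HISAT2, HISAT and Bowtie2. Versions, annotation and strand setting are not given in the sources used here. The authors deposited raw read counts per gene, and RPKM values that the authors computed from the count, the table's gene length and the library total. The table's 12 other columns of per-sample values were not used.

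Libraries were assigned by the treatment label. The counts of each library were divided by a size factor from the median of ratios (1.08 for siNC, 0.923 for siLINP1), taken over genes with at least 10 reads summed, read in both libraries. Fold changes had no pseudocount. Intervals are Clopper-Pearson intervals of the split of reads, or exact conditional intervals for ratios of ratios. They cover counting error only, since 1 library per treatment holds no spread between cultures, and the depth of each library sets their width. They treat reads as independent draws and are too narrow where reads are not independent molecules. A gene called higher or lower is past 1.5-fold, the fold criterion of the study. The genes, lists and named genes (all members, list genes past 1.5-fold, and further regulators and targets) were chosen with earlier results of these data known. Alternatives were total-count scaling, edgeR TMM factors, pseudocounts of 1 and 5, minimums of 1 and 100 reads, size factors from genes with at least 1000 reads, a threshold of 2-fold, and transcript lengths from GENCODE. Of the genes nearest in level to DDIT3, 1 is not reported here. The interval calculation was tested on data simulated with counting error only, the error it assumes. That test holds no spread between cultures and gives no information on it. Python 3.11.15, numpy 2.4.6, scipy 1.17.1, pandas 2.3.3, matplotlib 3.10.9, R 4.3.3 and edgeR 4.0.16 were used.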

Additional observations from a re-analysis of the deposited data

How the results depend on the processing

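Across total-count scaling, edgeR TMM factors, pseudocounts of 1 and 5, minimums of 1 and 100 reads, and size factors from genes with at least 1000 reads, PPP1R15A ranged from 1.80 to 1.89 in log2 fold change, DDIT3 from 1.07 to 1.15, PPP1R15B from 0.62 to 0.70 and EIF2AK3 from 0.48 to 0.56. The count of members past 1.5-fold was 3 higher and 0 lower under each of these. Scaling by the total count moved 3 members outside their counting interval: EIF2S3 to 0.030, a change of sign for a gene within 1.5-fold, ATF4 to 0.29 and PPP1R15A to 1.89. That scaling raises all log2 fold changes by 0.06 by its construction. At a threshold of 2-fold, the higher members were 2, PPP1R15A and DDIT3. The eIF2 cycle list then had 0 higher genes, the kinase regulators 0 lower, and the ATF4 and CHOP list 1 higher, ATF3, and 0 lower. With the length of the longest coding transcript of GENCODE in place of the table's gene length, the ratio of PPP1R15A to PPP1R15B was 3.52 in siNC and 7.99 in siLINP1, that of DDIT3 to ATF4 was 0.369 and 0.667, and that of EIF2S3 to EIF2S2 was 1.17 and 1.24. The difference of each ratio between the libraries does not depend on length. Genes past 1.5-fold numbered 2991 higher and 2389 lower of 19840 in the report, 7048 and 6456 of 29515 with a minimum of 1 read, and 1266 and 788 of 13336 with a minimum of 100 reads, and past 2-fold 1383 and 966. The sign of the phosphatase partner median, 0.01, changed to -0.02 with a minimum of 1 read. No paired analysis was possible because each treatment had 1 library, and leaving out a library leaves no comparison. EIF2AK3, with 501 reads, has the widest interval and is the member that depth limits most.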
